A study of Sus scrofa with 3 samples.

Results

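The genes described here carry long-chain fatty acids into the liver cell, bind them in the cytosol and activate them with coenzyme A. They were chosen by symbol from a list of 10 genes written from gene function, with earlier results of these data known. Of these, 8 were analysed among the 34579 features of the series: CD36, SLC27A2 and SLC27A4 for entry, FABP1 and FABP5 for binding, and ACSL1, ACSL3 and ACSL5 for activation. FABP4 and LPL, the remaining names on the list, were not analysed here. All 8 genes had a value above 10 fragments per kilobase of transcript (FPKM) in every library, so none was lost to the FPKM minimum of 1 used below.

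The study asked how testosterone deficiency changes the liver of boars on a diet rich in fat and cholesterol (HFC diet). Chinese Wuzhishan miniature pigs, aged 6 to 7 months when obtained, were acclimated for some weeks before surgery. They were left intact after a sham operation (IM), castrated (CM), or castrated and injected weekly with testosterone propionate in corn oil from the day of castration (CMT). All 3 groups then ate the HFC diet for some weeks, so the pigs were older when the livers were taken. No group on a normal diet enters these comparisons. Liver RNA of each group was pooled before sequencing, with 3 pigs per pool by the sample labels, while the study's methods give a larger group of animals and not the number pooled. Each group is therefore 1 library, the variation between pigs is unknown, no p-value was computed, and every difference below is a difference between pooled libraries.

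Fatty acids reach the hepatocyte from plasma bound to albumin or after lipase action on lipoproteins. CD36 and the fatty acid transport proteins of the SLC27 family promote their entry, fatty acid binding proteins (FABPs) hold them in solution and deliver them to organelles and nuclear receptors, and acyl-CoA synthetases trap them as acyl-CoA, the form used for oxidation and for triglyceride synthesis. The SLC27 proteins are themselves acyl-CoA synthetases, and several of these genes are known targets of the peroxisome proliferator-activated receptors (PPARs).

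CM, the library of castrated pigs, had the lowest level of 5 members (CD36, SLC27A2, ACSL1, ACSL3 and ACSL5) and the highest level of both FABPs, although ACSL1 and ACSL5 were lowest in IM when the libraries were scaled to their reads. CMT had the highest level of 6 members, namely CD36, both SLC27 genes and the 3 ACSL genes, although for CD36 it was level with IM within counting error. SLC27A4 alone was lowest in IM.

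**Figure D1:**
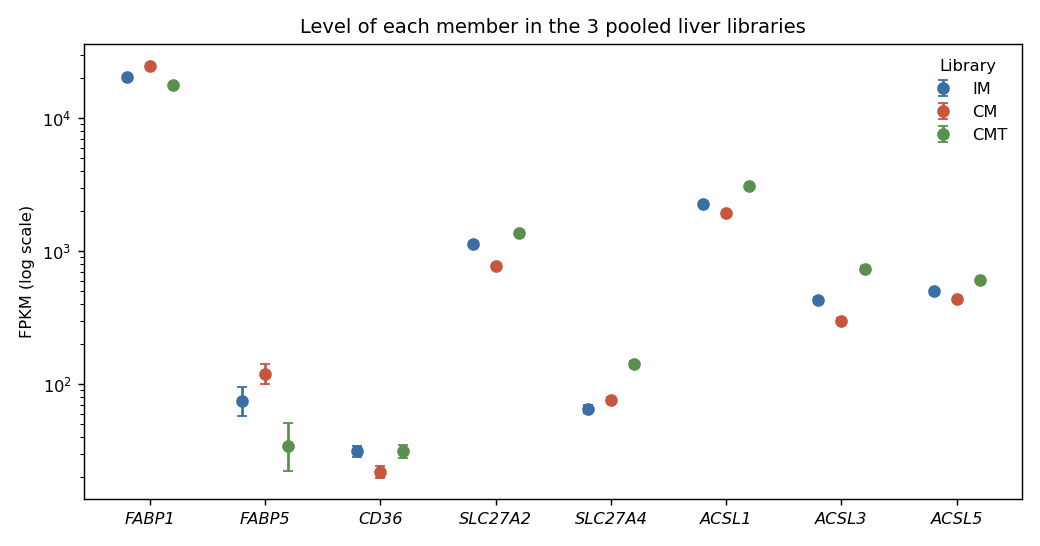
FPKM of the 8 members (log axis) in the IM, CM and CMT libraries; points are the deposited values and bars the 95% Poisson intervals of the recovered reads, which cover counting error only and are missing for ACSL5. FABP1 lies above all other members in each library, at 17778 to 24823 FPKM, while CD36 lies between 21.8 and 31.2 FPKM.

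FABP1, the liver fatty acid binding protein, was by far the most abundant member, with an FPKM of 20302 in IM, against 24823 in CM and 17778 in CMT. It stood at rank 59, 33 and 63 among the 22945 mRNA features of these libraries and held 0.234%, 0.343% and 0.207% of the FPKM sum. The CM value was 1.22 times the IM value, with a 95% interval of 1.19 to 1.25, and the CMT value was 0.716 times the CM value (0.697 to 0.736) and 0.876 times the IM value (0.850 to 0.902). None of these ratios reached 1.5-fold. Intervals of a ratio are exact binomial intervals on the reads recovered from the FPKM steps of 2 libraries, and they cover counting error only. The recovered length of 210 bases is too short for a whole FABP1 transcript, so that a common factor of its 10701, 17828 and 7616 reads may be missing and its intervals may be too wide.

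FABP5, the epidermal type FABP that macrophages and endothelial cells also express, was at 74.8 FPKM in the IM library, 119 in CM and 34.5 in CMT. It was the only member at least 1.5-fold apart in all 3 comparisons, and it was highest in CM and lowest in CMT. The CM versus IM ratio was 1.59 (1.18 to 2.18), and it was 0.290 for CMT versus CM (0.179 to 0.449) and 0.461 for CMT versus IM (0.276 to 0.748). These values rest on 64, 139 and 24 recovered reads, the fewest of any member with recovered reads, and the intervals are correspondingly the widest. With read numbers divided by 2, as where both mates of a pair are counted, the CM versus IM interval was 1.03 to 2.49, barely above 1. Those of CMT versus CM and CMT versus IM were 0.14 to 0.54 and 0.22 to 0.92. The recovered length of 341 bases is also too short for a whole transcript. Lengths recovered for the other members, such as 1219 bases for ACSL3 and 1981 for ACSL1, were not checked against annotated transcripts. Their reads may also lack a common factor.

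CD36, the membrane receptor also called fatty acid translocase, was the member with the lowest level in each library, with 31.1 FPKM in IM, against 21.8 in CM and 31.2 in CMT from 369, 352 and 301 reads. CM was 1.43-fold lower than IM (ratio interval 0.603 to 0.812), and CMT was 1.43 times CM (1.23 to 1.68). Between CMT and IM the log2 ratio was 0.01, with a ratio interval of 0.859 to 1.17, so no difference was detectable at this depth. None of these ratios reached 1.5-fold. At ranks from 9437 to 10872 of the mRNA features, CD36 mRNA was scarce in all 3 livers.

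SLC27A2, the fatty acid transport protein that is prominent in liver and also activates very long chain fatty acids, reached an FPKM of 1133 in the IM library, 772 in CM and 1359 in CMT. It was 1.47-fold lower in CM than in IM (ratio interval 0.658 to 0.707), the largest reduction of any member in that comparison and just short of 1.5-fold. The CMT value was 1.76 times the CM value (1.70 to 1.82) and exceeded the IM value by 0.26 on the log2 scale (ratio interval 1.16 to 1.24).

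SLC27A4, a transport protein of the endoplasmic reticulum best known from the intestine, followed a different order. Its FPKM was 65.0 in IM, against 75.7 in CM and 142 in CMT. CM was 1.16 times IM (1.07 to 1.26), whereas CMT was 1.88 times CM (1.76 to 2.02) and 2.19 times IM (2.02 to 2.37), the largest CMT versus IM ratio among the members. On the FPKM scale, SLC27A2 was thus 17.4 times as abundant as SLC27A4 in IM and 9.55 times in CMT, with CM in between.

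ACSL1, the major long-chain acyl-CoA synthetase of liver, was at 2245 FPKM in the IM library, 1926 in CM and 3087 in CMT. Its CM versus IM ratio was 0.858 (0.836 to 0.880), close to the 0.862 of ACSL5. CMT was 1.60 times CM (1.56 to 1.64) and 1.38 times IM (1.34 to 1.41).

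ACSL3, a synthetase of the endoplasmic reticulum and lipid droplets, differed most strongly within its family. It was at 429 FPKM in IM, against 299 in CM and 738 in CMT. The ratio of CMT to CM was 2.47 (2.30 to 2.65), the largest among the members, while CM stood at 0.697 times IM (0.644 to 0.753) and CMT at 1.72 times IM (1.60 to 1.85). ACSL3 was therefore below ACSL5 in IM and CM, at 0.856 and 0.691 times its level, and above it in CMT, at 1.22 times.

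ACSL5, a synthetase found at mitochondria and the endoplasmic reticulum, reached an FPKM of 502 in the IM library, 433 in CM and 605 in CMT. CMT was 1.40 times CM and 1.21 times IM. No whole number of reads fitted its 3 values, so no interval is given.

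**Figure D2:**
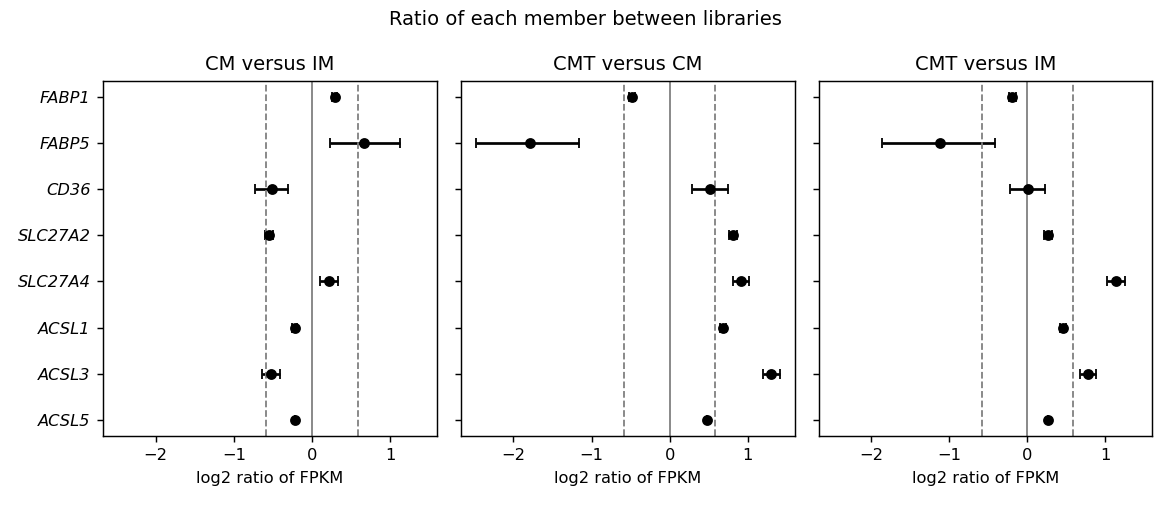
Log2 ratio of FPKM between libraries for each member, with 95% exact intervals of the recovered reads as bars (none for ACSL5), no difference as the solid line and 1.5-fold as dashed lines. FABP5 lies beyond 1.5-fold in all 3 panels, and SLC27A2, SLC27A4, ACSL1 and ACSL3 lie above it for CMT versus CM.

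The order of the levels was the same at the top in all 3 libraries, with FABP1 first, then ACSL1 and SLC27A2, and it changed at the bottom. In IM, FABP5 (57.6 to 95.5 FPKM by its counting interval) and SLC27A4 (61.0 to 69.2) could not be told apart. FABP5 lay above SLC27A4 in CM, at 100.2 to 141 against 71.9 to 79.5. In CMT it was level with CD36, at 22.1 to 51.3 against 27.8 to 35.0, and below SLC27A4.

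For CM versus IM, the comparison that addresses testosterone deficiency, FABP5 alone of the 8 members was at least 1.5-fold higher, which is 12.5% of the members. Of the 15613 mRNA features that reached an FPKM of 1 in every library, 11.1% were as far apart in that direction. No member was lower by 1.5-fold or more, against 12.1% of the features. The members' share past 1.5-fold was thus near or below that of all features. The median log2 ratio of the members was -0.22, beside -0.020 for all features, and 5 of the 8 ratios were below 0. CD36, SLC27A2 and ACSL3 had log2 ratios of -0.51, -0.55 and -0.52, at percentiles 14.6, 13.3 and 14.4 of the features, and FABP5 stood at percentile 90.6.

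For CMT versus CM, which addresses testosterone replacement, 4 members were at least 1.5-fold higher, namely SLC27A2, SLC27A4, ACSL1 and ACSL3. That is 50% of the members, against 12.1% of all features. FABP5 was the single member at least 1.5-fold lower, 12.5% of the members against 13.5% of the features. The median log2 ratio of the members was 0.60, beside 0.013 for all features, and 6 of 8 ratios were above 0. ACSL3 stood at percentile 97.3 and FABP5 at percentile 1.90 of the features, the extremes of the members. All 3 comparisons rest on the same 3 libraries, so a high or low value in CM enters both comparisons with it.

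For CMT versus IM, SLC27A4 and ACSL3 were at least 1.5-fold higher, 25% of the members against 6.67% of the features. FABP5 was at least 1.5-fold lower, 12.5% against 10.1%. SLC27A4 and FABP5 stood at percentiles 98.5 and 2.96 of the features, and were the members farthest from the IM level. CD36, with a log2 ratio of 0.01, and FABP1, with -0.19, lay nearest to that level, and the value of CD36 turned to -0.03 under upper quartile scaling. The median log2 ratio of the members was 0.27, beside -0.0072 for all features.

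**Figure D3:**
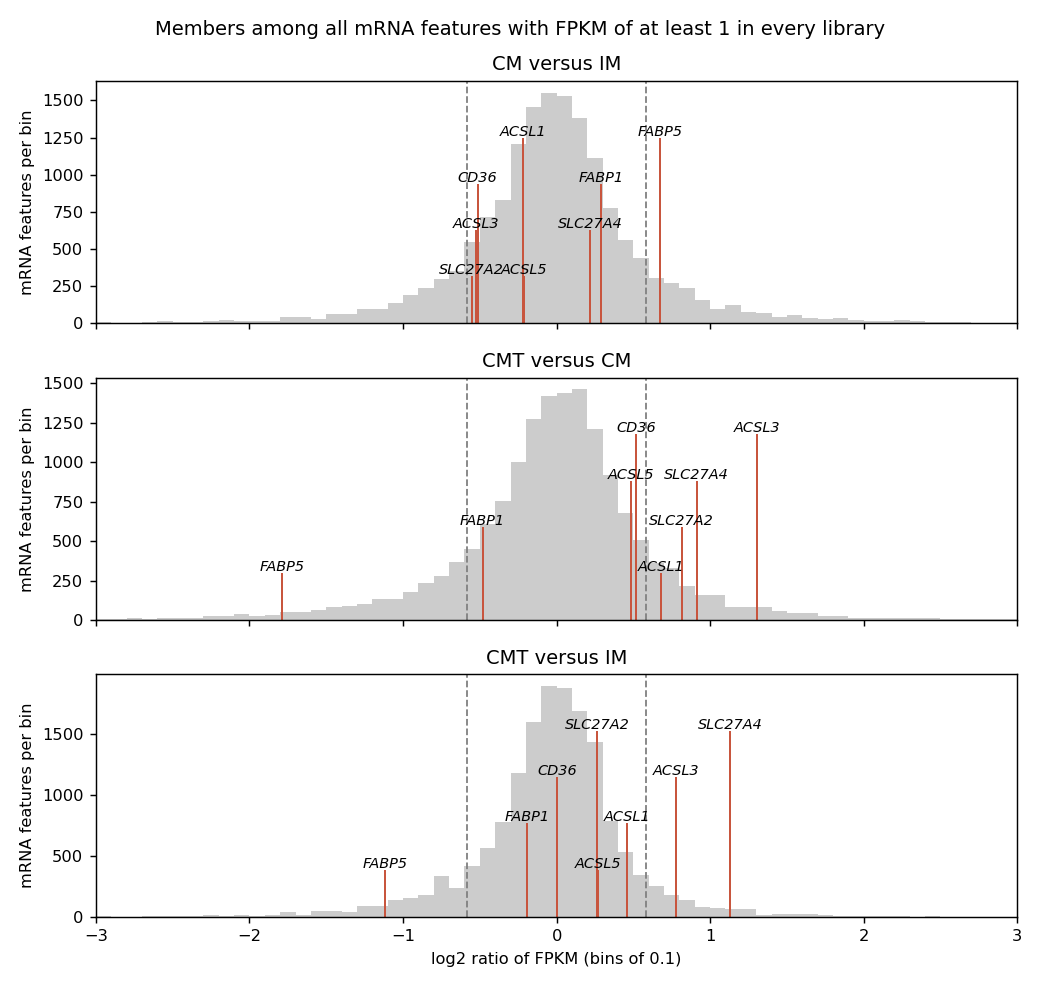
Number of mRNA features per bin of log2 ratio (grey bars, features reaching an FPKM of 1 in every library; features beyond the axis are not drawn) with the 8 members as red lines and 1.5-fold as dashed lines. The height of a red line only spaces the labels. The members lie within the bulk for CM versus IM, while for CMT versus CM 4 of them lie to the right of the upper dashed line and FABP5 lies at -1.79.

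The scale of a whole library moves all of these ratios together. The deposited FPKM values are not scaled to the total of reads, and scaling each library to its recovered reads moved every log2 ratio of CM to IM by 0.28 and every log2 ratio of CMT to CM by -0.24. Of all features, 22.0% then had a CM value at least 1.5-fold higher than IM and 6.42% a lower one, and 6.82% were higher and 22.4% lower in CMT than in CM. The log2 ratios of ACSL1 and ACSL5 for CM versus IM turned from -0.22 and -0.21 to 0.06 and 0.07, and CD36, SLC27A2 and ACSL3 remained below 0, at -0.23, -0.27 and -0.24. For CMT versus CM, SLC27A2 and ACSL1 were then below 1.5-fold, at 0.58 and 0.44, FABP1 passed it with -0.72, and SLC27A4, ACSL3 and FABP5 still passed it with 0.67, 1.06 and -2.03. Relative to the median of all features, the members' positions are the same under every such scaling, since the median moves by the same amount.

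**Figure D4:**
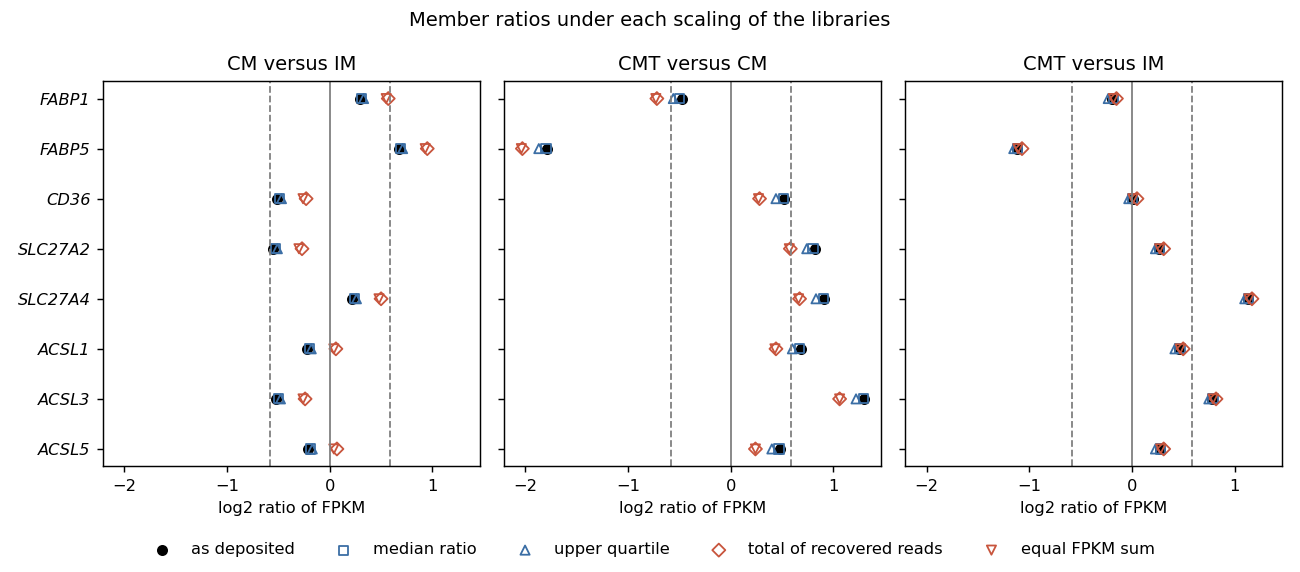
Log2 ratio of each member in the 3 comparisons with the values as deposited (black) and after scaling by the median ratio, the upper quartile, the total of recovered reads or an equal FPKM sum; dashed lines mark 1.5-fold. The last 2 scalings shift all members to the right for CM versus IM, across 0 for ACSL1 and ACSL5, and to the left for CMT versus CM, while the CMT versus IM values hardly move.

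Ratios between members within a library do not depend on its scale. FABP1 was 9.04 times as abundant as ACSL1 in IM, 12.9 times in CM and 5.76 times in CMT. Against SLC27A2, FABP1 was at 17.9, 32.1 and 13.1 times its level. The binding protein was thus highest against transport and activation genes in CM and lowest in CMT. ACSL3 was at 5.74 times the level of FABP5 in IM, 2.51 times in CM and 21.4 times in CMT, the widest spread of any pair of members between CM and CMT. SLC27A2 and CD36 kept a nearly fixed ratio between IM and CM, at 36.4 and 35.4, and 43.5 in CMT.

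Among the family members analysed, a single gene made up most of the FPKM. The 5 ACSL genes listed summed to 3343 FPKM in IM, against 2800.4 in CM and 4703 in CMT, of which ACSL1 held 67.2%, 68.8% and 65.6%. ACSL3 held 12.8% in the IM library, 10.7% in CM and 15.7% in CMT. The 5 SLC27 genes analysed summed to 1308, 944 and 1580.1 FPKM, and the share of SLC27A4 was 4.97% in IM, against 8.02% in CM and 9.01% in CMT, while SLC27A2 held 86.6%, 81.8% and 86.0%. SLC27A5, a further liver gene of that family, was not analysed here, so these are shares of an incomplete family. FABP1 held at least 99.5% of the FPKM of the 6 FABP genes analysed in each library. FABP2 and FABP6, intestinal forms, were listed at 0 in each library. FABP3, the heart form, which was picked out after its values were seen, stood at 7.47, 12.8 and 30.6 FPKM in IM, CM and CMT, so that its value in CMT was close to the 34.5 of FABP5.

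Genes of the same pathway were taken as 5 further lists. Of 17 other acyl-CoA synthetases and thioesterases that reached an FPKM of 1, 8 were lower in CM than in IM by 1.5-fold or more and none higher, which is 47.1% beside the 12.1% of all features. For CMT versus CM, 6 were higher and none lower, or 35.3% beside 12.1% of all features. These counts hold on the deposited scale. After the 0.28 shift by recovered reads, AACS (-2.20) and ACOT12 (-1.27) would stay past 1.5-fold between CM and IM, beside 6.42% of all features. ACSM4, ACSS1, ACSM5, ACOT13, ACSS2 and ACSM3, with deposited log2 ratios from -0.85 to -0.65, would fall short of it. The list had a median log2 ratio of -0.36 between CM and IM and of 0.46 between CMT and CM. ACSL4, a synthetase that prefers arachidonic acid, was at 166 FPKM in the IM library, 143 in CM and 273 in CMT. Its CMT versus CM ratio of 1.92 (1.78 to 2.07) was close to that of SLC27A4.

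The largest CM versus IM differences in that list were in genes of short- and medium-chain acids. AACS, which activates acetoacetate in the cytosol, was at 509 FPKM in IM, against 111 in CM and 822 in CMT. ACOT12, which hydrolyses acetyl-CoA, was at 540.5, 224 and 604 FPKM. ACSM4, of the medium-chain synthetase family, was at 10546 FPKM in the IM library, 5841 in CM and 14427 in CMT. All of them were lowest in CM and highest in CMT, as were the 3 ACSL members.

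Of 10 other binding proteins that reached an FPKM of 1, 2 were at least 1.5-fold higher in CM than in IM and none lower, or 20% of the list beside 11.1% of all features. CRABP1, which binds retinoic acid, was at 12.1 FPKM in IM, against 31.0 in CM and 13.0 in CMT, from 16, 56 and 14 reads. Its CM versus IM ratio was 2.57 (1.45 to 4.80). For CMT versus CM, 2 were higher and 2 lower, 20% each beside 12.1% and 13.5% of all features.

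Of 11 other transporters and membrane proteins, 2 were lower in CM than in IM by 1.5-fold or more and none higher, while 4 were higher and 1 lower for CMT versus CM. The lower genes are 18.2% of the list beside 12.1% of all features, and for CMT versus CM the shares are 36.4% and 9.09% beside 12.1% and 13.5%. MFSD2A, which imports lysophosphatidylcholine, was at 444 FPKM in the IM library, 40.4 in CM and 220.1 in CMT. That CM versus IM ratio of 0.0909 (0.0762 to 0.108) was far outside the range of the members. SLC27A3, another transport protein, was at 50.7 FPKM in IM, against 31.7 in CM and 38.6 in CMT.

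Of 15 lipoprotein lipase partners and related lipases, 4 were lower in CM than in IM by 1.5-fold or more and none higher, and 3 were higher and 1 lower for CMT versus CM. The lower genes are 26.7% of the list beside 12.1% of all features, and for CMT versus CM the shares are 20% and 6.67% beside 12.1% and 13.5%. LIPG, endothelial lipase, was at 894 FPKM in the IM library, 110.3 in CM and 594 in CMT. APOA5, an activator of lipoprotein lipase, was at 5430 FPKM in IM, against 2679 in CM and 3827 in CMT, and PCSK6, a proprotein convertase, was at 787, 419 and 1084 FPKM. ANGPTL4, a secreted inhibitor of the enzyme and a known PPAR target, was at 1318 FPKM in the IM library, 752 in CM and 1059 in CMT. LIPC, hepatic lipase, had a CM versus IM ratio of 0.762 (0.742 to 0.782), and its CMT value was 1.56 times the CM value (1.52 to 1.60). GPIHBP1, which anchors lipoprotein lipase to the capillary wall, rested on 24, 42 and 18 reads, so the interval of its CM versus IM ratio, 0.760 to 2.22, was wide around 1.28.

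Of 16 transcription factors of these genes, 2 had a CM value at least 1.5-fold above IM and 5 a value as far below it, and 5 were higher and 2 lower for CMT versus CM. These are 12.5% and 31.2% of the list beside 11.1% and 12.1% of all features, and 31.2% and 12.5% beside 12.1% and 13.5%. PPARA was at 318 FPKM in IM, against 264 in CM and 271 in CMT. Its log2 ratio between CM and IM was -0.27. PPARD, among the 5 factors counted as lower, had a log2 ratio of CM to IM of -1.12. From CM to CMT its log2 ratio was 0.85. PPARD was picked out after its values were seen. The study also measured PPARD by quantitative PCR and its protein by western blot, and reported both as lower in CM pigs. PPARG, a regulator of CD36 in many tissues, was at 9.22 FPKM in the IM library, 19.7 in CM and 9.73 in CMT, from 21, 61 and 18 reads. PPARG was highest in CM, with a CM versus IM ratio of 2.13 (1.28 to 3.69). The CMT versus CM ratio was 0.495 (0.275 to 0.848), and with read numbers divided by 2 its interval, 0.21 to 1.09, included 1. Any relation between PPARG and CD36 was not tested. FOXA2 was at 174, 54.6 and 102 FPKM and CEBPB at 496, 190.4 and 277. AHR was at 168 FPKM in IM, against 53.6 in CM and 255 in CMT, so all of these 3 genes had IM values over 1.5 times those of CM.

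**Figure D5:**
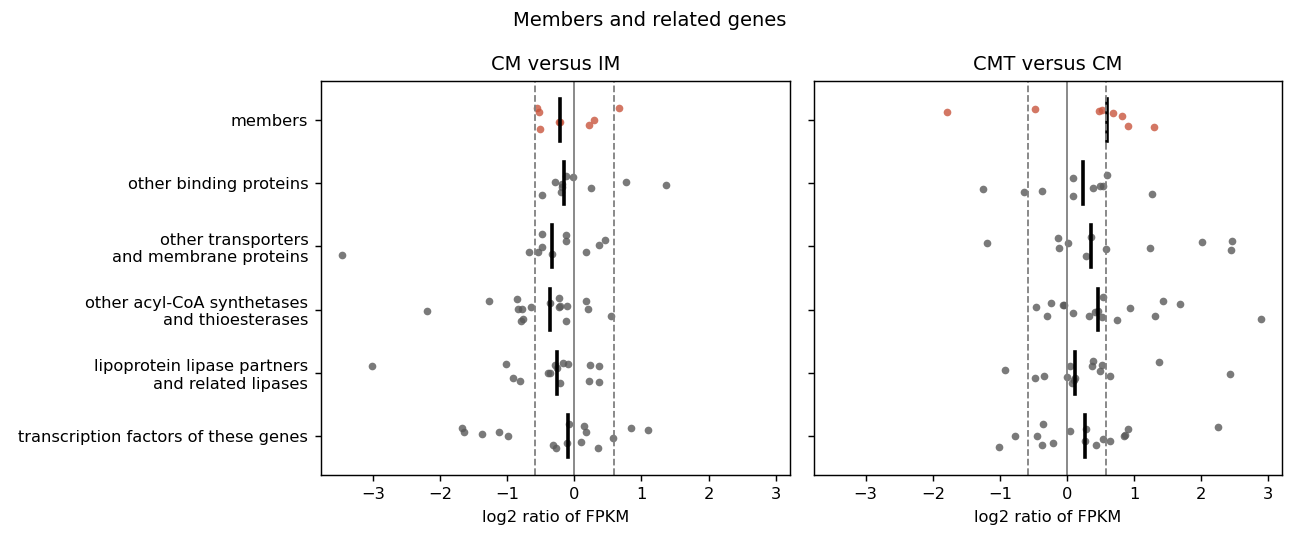
Log2 ratio of FPKM for the members (red) and for the genes of 5 related lists (grey, features reaching an FPKM of 1 in every library), with black bars at the medians and dashed lines at 1.5-fold. The vertical scatter within a row only separates the points. As deposited, the median of each row lies below 0 in the CM versus IM panel and above 0 in the CMT versus CM panel (-0.22 and 0.60 for the members), though scaling to recovered reads lifts that of the members to 0.063 in the former.

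The lists were written with earlier results of these libraries known, so their counts are a description. The counts were made on the deposited scale and would differ under another. The direction of the medians also depends on the scale of the libraries, which moves each of them by the 0.28 and -0.24 given above. For CM versus IM that shift would carry the medians of the other binding proteins, the lipases and the transcription factors, at -0.15, -0.26 and -0.092, above 0, as it does that of the members (0.063). For CMT versus CM it would carry the lipases' median of 0.12 below 0 and that of the other binding proteins, 0.24, to about 0.

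The gene pattern most like that of FABP1 was sought among 12126 mRNA features that reached an FPKM of 10 in every library, by the distance between log2 ratios of CM versus IM and CMT versus CM. ZNRF3 was nearest, at a distance of 0.0025, followed by KIAA0753, EFNA2, ZNF282 and LOC102161427 at 0.015 to 0.019. As many as 168 features lay within 0.1, so that likeness over 3 libraries singles out no gene.

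The tissue label and the other cells of liver were checked with marker genes, since FABP5 and CD36 are also expressed in macrophages and endothelium and fewer cells of a type cannot be told apart from less RNA per cell in bulk liver. All 9 hepatocyte markers analysed passed the FPKM minimum, and albumin (ALB) was at 690375, 476360.2 and 445509 FPKM in IM, CM and CMT. CYP2E1, a cytochrome of central hepatocytes and one of these markers, was at 3148, 14546 and 54.4 FPKM, by far the widest spread of them. TTR, APOA1, APOB, SERPINA1, FGB and HP were lowest in CM, and the median log2 ratio of the hepatocyte list was -0.35 between CM and IM and 0.25 between CMT and CM, the same signs as for CD36, SLC27A2 and the ACSL members on the deposited scale. The 10 macrophage markers analysed summed to 17299, 17310.1 and 18689 FPKM. MSR1 was at least 1.5-fold higher and MARCO lower in CM than in IM, 10% each beside 11.1% and 12.1% of all features. The 9 endothelial markers summed to 4042, 3315 and 3762 FPKM. None of them was higher and 1 was lower, or 0% and 11.1% beside the same 11.1% and 12.1%. Single markers of these lists differed more than the sums, with log2 ratios of CMT to CM of -0.74 for MSR1, -0.61 for LYVE1 and 1.94 for MARCO, beside -1.79 for FABP5. Of the 6 adipocyte markers, ADIPOQ and LEP, which define the cell type, were listed at 0 in all 3 libraries, and the list summed to 114, 86.5 and 103 FPKM. PLIN4, at 11.2, 34.1 and 14.1 FPKM in IM, CM and CMT, was highest in CM as FABP5 was. CIDEC, at 84.1, 40.1 and 77.15 FPKM, and CIDEA were lowest in CM, and PLIN1 was highest in IM. The 8 lymphocyte markers summed to 429.6, 571 and 339 FPKM, highest in CM and lowest in CMT as FABP5 was. Of these, 5 were at least 1.5-fold lower in CMT than in CM, or 62.5% beside 13.5% of all features. MS4A1, however, was highest in CMT, and both MS4A1 and CD79B were lowest in IM. Stellate cell markers summed to 1598, 1669.9 and 1399.9 FPKM. The 4 cholangiocyte markers summed to 856, 805 and 1185 FPKM. However, 3 of them (EPCAM, SOX9 and CFTR) were at least 1.5-fold higher in the CM library than in IM, as FABP5 was. That is 75% beside 11.1% of all features. For CMT versus CM, 2 were lower and 1 higher, 50% and 25% beside 13.5% and 12.1%. The median log2 ratio of the 4 markers was 0.76 between CM and IM and -0.59 between CMT and CM. Their sum differed in direction through SPP1. Erythroid markers summed to 17295 FPKM in the IM library, 3424 in CM and 5194 in CMT. The part of these cells in the members' values was not tested.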

How the data were processed

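Poly(A) RNA of 3 pooled liver samples was sequenced by the authors as paired-end reads, checked with FastQC and mapped with TopHat to the pig genome (Sscrofa build 10.2). The authors deposited 1 FPKM value per feature and library for 34579 features, 22945 of them mRNA; the counting program and the annotation are not given in the sources used here. The values were used without rescaling or a pseudocount.

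Within most features the deposited FPKM values are whole multiples of a step, reads over length and a library divisor. The divisors, found on a grid of 0.01 and chosen so that the reads came closest to the mapped reads stated by the study, were 2.51, 3.42 and 2.04 in IM, CM and CMT, and reads were recovered for 23090 features (95.1% of the 24277 above 0), 32197638, 36126743 and 25419908 reads in all. On 1 kb, 3 reads correspond to an FPKM of 1.20, 0.877 and 1.47. The shortest length (up to 10000 bases) giving whole reads in every library was used, which can drop a factor common to them. Only 32.7% to 34.6% of the read numbers of at least 20 were odd, as where both mates of a pair are counted, in which case intervals are too narrow. On 2997 simulated features 92.6% of recoveries were exact and 100.0% right apart from a common factor. The simulated reads were drawn singly and not as pairs. These shares therefore need not hold for the deposited values, where few read numbers are odd and a dropped factor may be more frequent.

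Comparisons are ratios of FPKM with 95% exact binomial intervals, and a difference was counted from 1.5-fold among features reaching an FPKM of 1 in every library. There were no replicates and no tests. Members and lists were chosen with earlier results of these data known. Outside the members, at most 3 genes per list were named, those reaching an FPKM of 10 in every library and with the largest CM versus IM ratios past 1.5-fold, plus 6 genes of a fixed list (PPARA, PPARG, ACSL4, LIPC, ANGPTL4 and GPIHBP1). PPARD, FABP3 and further synthetases and thioesterases were added after their values were seen. Alternatives were 4 scalings, 2 pseudocounts, other FPKM minimums, a 2-fold threshold and the read intervals. Python 3.11.15, numpy 2.4.6, pandas 2.3.3, scipy 1.17.1 and matplotlib 3.10.9 were used.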

Additional observations from a re-analysis of the deposited data

How the results depend on the processing

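The counts of members past 1.5-fold changed with the scaling and the threshold. After scaling to the total of recovered reads or to an equal FPKM sum, 2 members were higher (SLC27A4 and ACSL3) and 2 lower (FABP1 and FABP5) for CMT versus CM, in place of 4 and 1. Of all features, 6.82% were higher and 22.4% lower in CMT than in CM after scaling to recovered reads. After the equal sum scaling these shares were 6.73% and 22.9%. The lower members' share was thus near that of all features under both scalings. With a threshold of 2-fold, 0 members were higher in CM than in IM. At that threshold 1 was higher in CMT than in CM (ACSL3) and 1 in CMT than in IM (SLC27A4). The share of all features past 2-fold was not counted. Median ratio and upper quartile scaling, pseudocounts of 1 and 10 FPKM, FPKM minimums of 10 or none, and the demand that the read interval exclude 1 left all 6 counts as they were, also with read numbers divided by 2 to stand for fragments, an alternative chosen after seeing the data. The members' median log2 ratio of CM versus IM moved to 0.063 and 0.039 under the scalings to recovered reads and to an equal sum, and that of CMT versus CM to 0.36 and 0.35. No member past 1.5-fold changed direction under any scaling or pseudocount. Reads from annotated transcript lengths were not run, since no transcript lengths were used here. With 1 pooled library per group, nothing can be left out and no difference has a replicate check. FABP5 is limited by its 24 reads in CMT.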
